A study of Mus musculus with 2 samples.

Results

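The cell cycle genes described here are a list of 39 named genes, 15 that run the G1 phase, 13 that license and carry out DNA replication, and 11 that act in mitosis. All 39 were found by symbol in the GENCODE M21 annotation, among 21827 protein-coding genes. The cells were resting naive T cells of the CD8-positive alpha-beta lineage, which have met no antigen, do not divide and can give rise to killer T cells. Chromatin was mapped by DNase-seq, in which DNase I cuts the accessible DNA of isolated nuclei and the cut ends are sequenced. The primary cells came from virgin male adult mice aged 2 months, of the hybrid strain B6CASTF1/J. The labels name no treatment. The 2 libraries formed 1 group. The labels number them biological replicates 2 and 3, with different biosamples and the same donor label, so separate animals cannot be assumed.

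A resting cell holds the cell cycle in check through pocket proteins of the retinoblastoma family, which bind E2F transcription factors at the promoters of genes for DNA replication. D-type cyclins with their kinases release this hold, cyclin E carries the cell into DNA synthesis, and helicase loading, DNA copying and mitosis follow. Mitotic genes are known for promoters that carry a cell cycle homology region (CHR), read by the MuvB complex, and CCAAT boxes, read by NF-Y.

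The libraries differed in depth, which bears on every absence below. The stricter peak list of replicate 2 held 38223 peaks and that of replicate 3 held 17061, and the footprint lists held 146244 and 29967 intervals. If the signal was scaled per 1e+06 tags, its smallest step corresponded to 1.34e+08 tags in replicate 2 and 2.21e+07 in replicate 3. Of 9 T cell and CD8 marker genes measured, 8 had a stricter promoter peak in replicate 2, against 50.5% of all protein-coding genes. Cd8a, a CD8 coreceptor chain, had none in either library. Cd8b1, the other chain, was the 1 of the 9 with a peak in both libraries, against 40.9% of all protein-coding genes. No stricter promoter peak of either library lay at the 5 B cell, 3 CD4 helper and 3 erythroid markers, and Itgam, in replicate 2, was the 1 of 5 myeloid markers with one.

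The promoters of most cell cycle genes were open in these non-dividing cells. A promoter was counted as open where a stricter peak of the library reached within 1000 bp of a start site of a protein-coding transcript. Of the 39 cell cycle genes, 32 (82.1%) were open in both libraries, against 40.9% of all 21827 protein-coding genes and 65.1% of the 5042 with CpG-rich promoters. Replicate 2 had 38 of the 39 (97.4%), against 50.5% of all genes. Replicate 3 had 32 (82.1%), against 40.9%. With the permissive peak lists, 33 (84.6%) were open in both, against 45.5% of all genes. Among the 18 cell cycle genes with CpG-rich promoters 14 (77.8%) were open in both libraries, and among the other 21 it was 18 (85.7%), against 33.6% of the 16785 genes without CpG-rich promoters. These groups differ in CpG content, since 11 of the 21 had an observed over expected CpG ratio of at least 0.6, against 3032 of the 16785. By that ratio alone, 24 of 29 cell cycle genes (82.8%) were open in both libraries, against 72.2% of 8074 genes. No test was made, since there is 1 group and the genes were listed with results of these data known.

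By role, replication genes were open in both libraries at 12 of 13 (92.3%), mitotic genes at 9 of 11 (81.8%) and G1 genes at 11 of 15 (73.3%). The 6 genes open in replicate 2 alone were Ccnd2, Cdk6, E2f2, Tyms, Aurkb and Plk1, and Ccnd1 was the 1 gene open in neither. No cell cycle gene was open in replicate 3 alone. The promoters missing from replicate 3 were of low signal in replicate 2. Of the 17 cell cycle genes with a signal of 4 or more in replicate 2, 17 were also open in replicate 3, against 99.5% of all genes in that range. Between 2 and 4 it was 11 of 12 against 90.2% of all genes, between 1 and 2 it was 4 of 7 against 56.4%, and below 1 it was 0 of 2 against 13.9%. Whether these promoters were closed in the cells of replicate 3 was not tested.

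**Figure D1:**
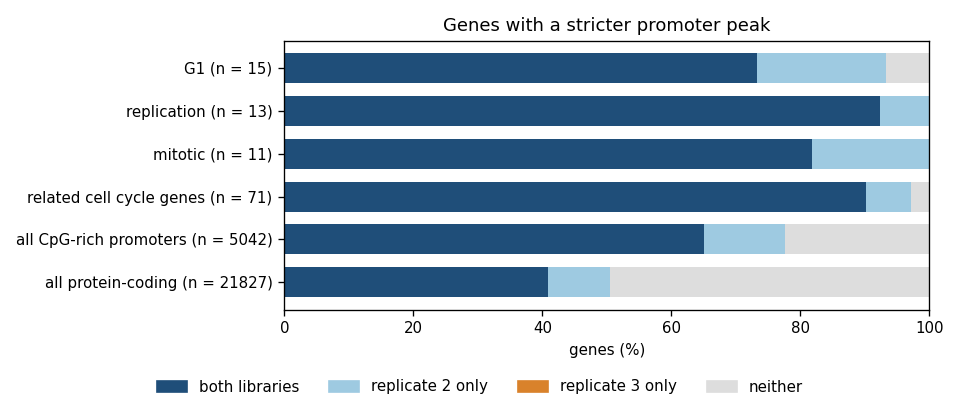
Share of genes with a stricter promoter peak in both libraries, in replicate 2 alone, in replicate 3 alone or in neither, for the 3 role classes, 71 related cell cycle genes, all CpG-rich promoters and all protein-coding genes. The dark part of the bar ends at 92.3% for replication genes, 81.8% for mitotic genes and 73.3% for G1 genes, against 40.9% for all protein-coding genes.

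Signal is the deposited value of the strongest promoter peak, whose scaling is not stated, so its level was also given as a percentile among all promoters with a peak in the same library. In a bulk library a low signal can come from few cells with an open promoter or from weak opening in all cells, and these cannot be told apart. Over the 32 genes open in both libraries, the mean of the percentiles of both libraries had a median of 50.3, against 54.7 for the 8917 such genes in all. Replication genes stood at a median of 59.3, G1 genes at 48.8 and mitotic genes at 28.1. The order of the genes was alike in both libraries, with a Spearman correlation of signal of 0.914 across the 32 genes and 0.920 across the 8917 genes. These are correlations across genes, which are not replicates.

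**Figure D2:**
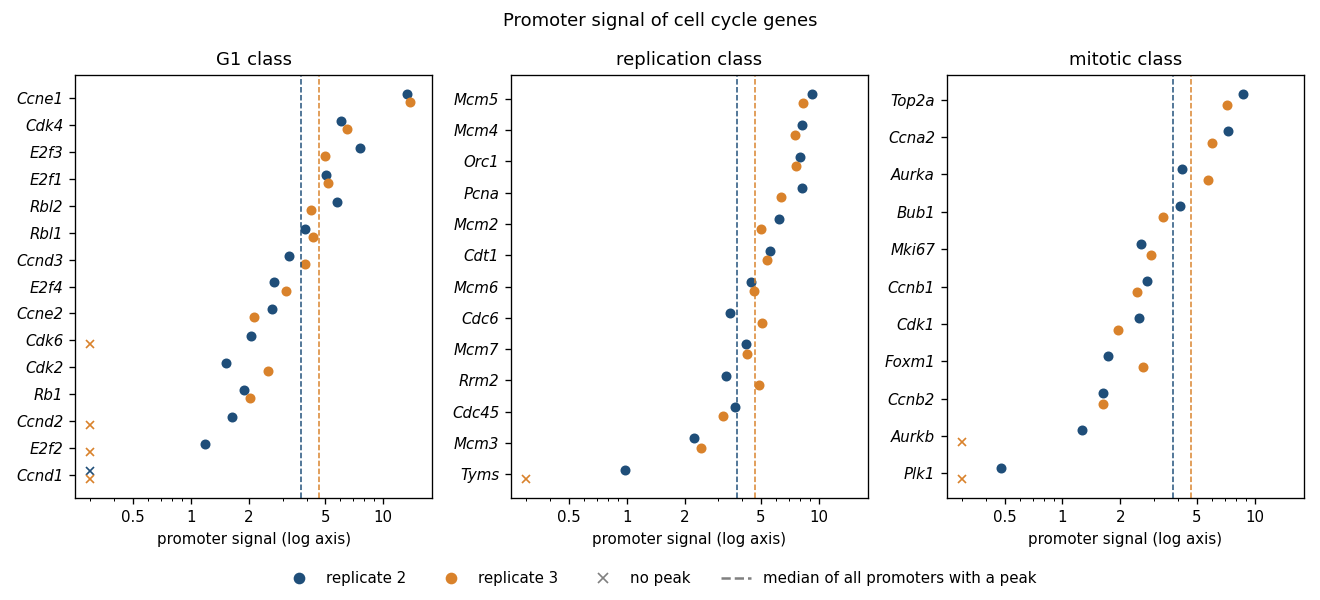
Promoter signal of each of the 39 genes on a log axis, in replicate 2 (blue) and replicate 3 (orange), by role class, with genes ordered by their mean signal and crosses for no peak. Dashed lines give the median over all promoters with a peak in each library. Ccne1 stands highest at 13.4 and 13.8, and most mitotic genes lie left of the dashed lines.

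The G1 genes open with the D-type cyclins, the partners of Cdk4 and Cdk6 that answer growth signals, and not all of their promoters were open. Ccnd1 had no stricter or permissive peak, no footprint and no position with a false discovery rate up to 0.05 in its promoter window in either library. Ccnd2 had a signal of 1.64 in replicate 2 and no peak in replicate 3. That peak was 620 bp wide and centred 850 bp upstream of the start site nearest to it, while a second peak on the start site had a signal of 0.895. Ccnd3 was open in both libraries, at 3.25 in replicate 2 and 3.93 in replicate 3. Of the D-type cyclin promoters, Ccnd3 was thus the 1 open in both, through a start site inside the gene, since its most 5′ start site was not open in both.

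The kinases that these cyclins activate differed from one another. Cdk4 had signals of 6.06 in replicate 2 and 6.50 in replicate 3, with a mean percentile of 73.3. Cdk6 had 2.04 in replicate 2 and no stricter peak in replicate 3. Its window in replicate 3 held a permissive peak of 2.94, and its lowest false discovery rate there was 0.00118, above the 0.001 that the windows of all 32 genes open in that library reached. Cdk2, the kinase partner of cyclin E, had low signals of 1.52 and 2.53 in replicates 2 and 3.

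Ccne1, which encodes the cyclin E that starts DNA synthesis, had the highest promoter signal of the 39 genes in both libraries. Its signal was 13.4 in replicate 2 and 13.8 in replicate 3, at percentiles 99.0 and 99.5. The peak had the same borders in both libraries, chr7:38107541-38107780 on mm10, and ended just upstream of the start site, with its centre 126 bp before it. It held 6 footprints in each library. Ccne2, its paralogue, had 2.65 in replicate 2 and 2.12 in replicate 3, with a mean percentile of 22.8.

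The activating E2F factors were open to different degrees. E2f1 had signals of 5.03 in replicate 2 and 5.19 in replicate 3, and its mean percentile was 61.1. E2f3 had 7.58 in replicate 2 and 4.97 in replicate 3, at percentiles 84.3 and 54.5, the widest gap between libraries among the 32 genes. E2f2 had 1.18 in replicate 2 alone, in a peak 110 bp wide that lay upstream of the start site without reaching it. E2f4, which acts mainly as a repressor with the pocket proteins, had 2.72 and 3.12 in replicates 2 and 3.

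All 3 pocket protein genes were open in both libraries. Rbl2, whose product is the pocket protein best known from resting cells, had the highest signals of the 3, 5.74 in replicate 2 and 4.20 in replicate 3. Rbl1 had 3.92 and 4.34. Rb1, the retinoblastoma gene itself, had 1.90 in replicate 2 and 2.03 in replicate 3, a mean percentile of 17.0. Its window held 4 stricter peaks in replicate 2 and a single one of 208 bp in replicate 3.

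Replication genes had the highest signals as a class. The MCM genes encode the 6 subunits of the replicative helicase, and the promoters of all of them were open in both libraries. Mcm5 had signals of 9.23 in replicate 2 and 8.31 in replicate 3, and Mcm4 had 8.19 and 7.50, with mean percentiles of 90.0 and 85.0. Mcm2 had 6.18 in replicate 2 and 5.01 in replicate 3. Mcm6 had 4.45 and 4.61, Mcm7 had 4.16 and 4.20, and Mcm3 had 2.23 and 2.44, each with replicate 2 first. Subunits of 1 complex thus ranged from a mean percentile of 22.1 for Mcm3 to 90.0 for Mcm5.

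The loaders of that helicase were also open in both libraries. Orc1, a subunit of the origin recognition complex, had signals of 7.97 in replicate 2 and 7.63 in replicate 3. Cdt1 had 5.60 and 5.38, and Cdc6 had 3.45 and 5.06, each with replicate 2 first. Cdc45, which joins the helicase when it is switched on, had 3.66 in replicate 2 and 3.16 in replicate 3. Pcna, the sliding clamp of DNA polymerases, had 8.16 in replicate 2 and 6.37 in replicate 3, with a mean percentile of 79.6. Both genes for nucleotide supply were also read. Rrm2, a subunit of ribonucleotide reductase, had 3.31 in replicate 2 and 4.88 in replicate 3. Tyms, thymidylate synthase, had a peak on its start site of 0.977 in replicate 2 and none in replicate 3.

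Mitotic genes ranged from high to very low signal. Top2a, the topoisomerase that untangles chromosomes, had signals of 8.68 in replicate 2 and 7.14 in replicate 3, and a mean percentile of 84.6. Ccna2, which encodes cyclin A and acts from DNA synthesis into mitosis, had 7.24 in replicate 2 and 5.96 in replicate 3. Aurka, a kinase of the spindle poles, had 4.16 and 5.74, and Bub1, a kinase of the spindle checkpoint, had 4.09 and 3.34. These 4 genes had the highest mean percentiles of the class, 84.6, 74.6, 59.8 and 41.9 in the order given.

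The other mitotic genes open in both libraries had mean percentiles of 12.6 to 28.1. Mki67, the gene of the proliferation marker Ki-67, had signals of 2.57 in replicate 2 and 2.89 in replicate 3. Cdk1, the kinase that drives mitosis, had 2.50 and 1.94, and its cyclin partners had 2.75 and 2.44 at Ccnb1 and 1.63 and 1.63 at Ccnb2. Foxm1, a transcription factor of mitotic genes, had 1.73 in replicate 2 and 2.62 in replicate 3, where the peak was 83 bp wide. Aurkb, the kinase of the chromosomal passenger complex, had 1.26 in replicate 2 alone. Plk1, a kinase of mitotic entry, had the lowest signal of the 39 genes with a peak, 0.477 in replicate 2, and no peak in replicate 3. Both of these peaks nonetheless lay on the start site.

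**Figure D3:**
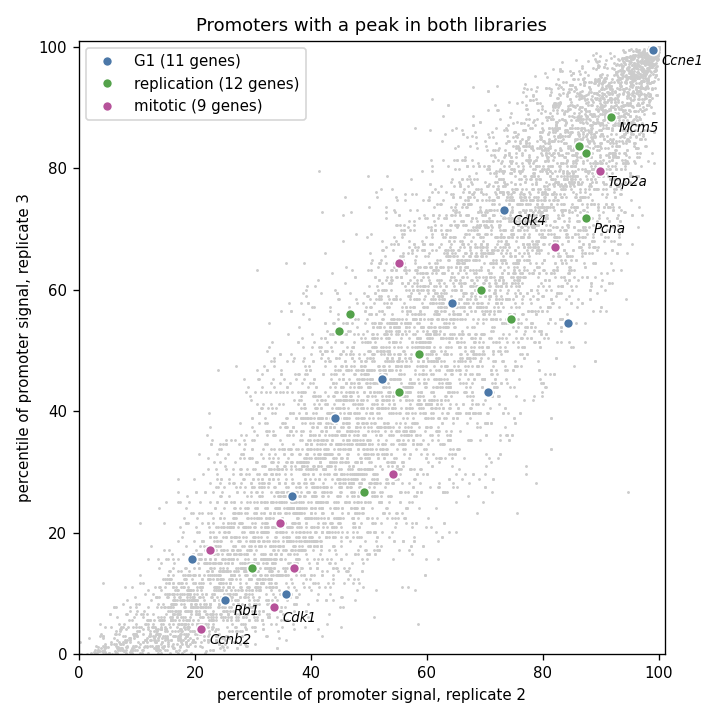
Percentile of promoter signal in replicate 2 (horizontal) and replicate 3 (vertical) for the 8917 genes open in both libraries (grey) and the 32 cell cycle genes among them, coloured by role class. Mitotic genes gather at the lower left apart from Top2a, Ccna2, Aurka and Bub1, and Ccne1 stands at the upper right corner.

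The position of the peaks relative to the start site was compared with that at all genes. The strongest peak covered the start site at 29 of 38 cell cycle genes (76.3%) in replicate 2, against 72.3% of all genes with a peak, and at 24 of 32 (75.0%) in replicate 3, against 72.8%. Its centre lay upstream at 81.6% of them in replicate 2, against 69.4% of all genes, with a median of 52 bp before the start site against 34 bp. In replicate 3 it lay upstream at 87.5%, against 72.7%, with medians of 51 bp and 36 bp. The strongest peaks of both libraries overlapped at 30 of the 32 genes (93.8%), against 97.0% of all genes. The exceptions were Mcm7 and Cdc45. At Mcm7 the strongest peak was centred 142 bp upstream of the start site in replicate 2, and 688 bp downstream in replicate 3. Cdc45 has 2 start sites, and the distance of each peak was taken from the start site nearest to it. In replicate 2 the strongest peak, chr16:18811641-18811880, was centred 134 bp upstream of 1 of them. In replicate 3 it was chr16:18812241-18812420, centred 358 bp upstream of the other. These 2 distances therefore do not give the distance between the peaks. At both genes each of the 2 sites had a stricter peak in both libraries, and the order of their signals differed. At Cdc45 the first site had 3.66 in replicate 2 and 2.08 in replicate 3, and the second had 2.92 and 3.16. At Mcm7 the upstream site had 4.16 in replicate 2 and 2.67 in replicate 3, and the downstream site had 3.30 and 4.20.

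Some of these promoters are shared with a neighbour that is transcribed the other way. A divergent protein-coding start site lay within 1000 bp at 6 of the 39 genes (15.4%), against 8.99% of all genes. They were 4 replication genes and 2 mitotic genes, and no G1 gene. Foxm1 lay 99 bp from Rhno1, Orc1 lay 118 bp from Prpf38a and Mcm7 lay 184 bp from Ap4m1. Aurka lay 199 bp from Cstf1, Cdc45 lay 206 bp from Ufd1 and Mcm4 lay 489 bp from Prkdc. At these promoters apart from that of Mcm4, the strongest peak of replicate 2 held this start site of the neighbour. In replicate 3 the strongest peak held it at Orc1 and Aurka, but not at Mcm7, Cdc45 and Foxm1. A weaker peak of replicate 3 held it at Mcm7 and Cdc45. The opening therefore cannot be assigned to 1 gene of the pair. The strongest Mcm4 peak covered the Mcm4 start site and not that of Prkdc in either library. A separate weaker peak covered the Prkdc start site in both libraries, at 4.07 in replicate 2 and 4.34 in replicate 3. Which gene each of these peaks serves was not tested.

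Short DNA words known from cell cycle promoters were looked up in the reference sequence from 250 bp before to 50 bp after each protein-coding start site, on both strands. The E2F words were TTTCCCGC, TTTCGCGC, TTTGCCGC and TTTGGCGC, and the CHR words were TTTGAA and TTCGAA. An E2F word stood at 8 of 13 replication genes (61.5%), 6 of 15 G1 genes (40.0%) and 1 of 11 mitotic genes (9.09%), against 3.78% of all protein-coding genes and 6.16% of those open in both libraries. A CHR word stood at 9 of 11 mitotic genes (81.8%), 3 of 13 replication genes (23.1%) and 3 of 15 G1 genes (20.0%), against 24.3% of all genes and 19.4% of those open in both. The word CCAAT stood at 10 of 11 mitotic genes (90.9%), 10 of 13 replication genes (76.9%) and 6 of 15 G1 genes (40.0%), against 46.7% of all genes. A word is a match of letters, not a bound site.

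The same split stood in lists of other genes of the pathway. E2F words were at 8 of 29 other replication factors (27.6%) and 1 of 23 other mitotic genes (4.35%). CHR words were at 18 of the 23 other mitotic genes (78.3%) and 4 of the 29 other replication factors (13.8%). The SP/KLF word GGGCGG did not divide the classes in this way. It stood at 10 of 11 mitotic (90.9%), 11 of 13 replication (84.6%) and 11 of 15 G1 genes (73.3%), against 51.2% of all genes, 75.6% of those open in both libraries and 86.6% of those with CpG-rich promoters. The ETS word CCGGAAG stood at 6 of the 39 cell cycle genes (15.4%), against 13.5% of all genes. It stood at 26.2% of the genes open in both libraries and 15.8% of those with CpG-rich promoters. The NRF1 word GCATGCGC stood at 2 of the 39 (5.13%), against 4.41% of all genes and 7.83% of those open in both libraries. The CREB/ATF word TGACGTCA stood at 1 (2.56%), against 2.91% and 5.01% in that order. The YY1 word AAGATGGC stood at 1 (2.56%), against 4.30% and 7.79%.

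**Figure D4:**
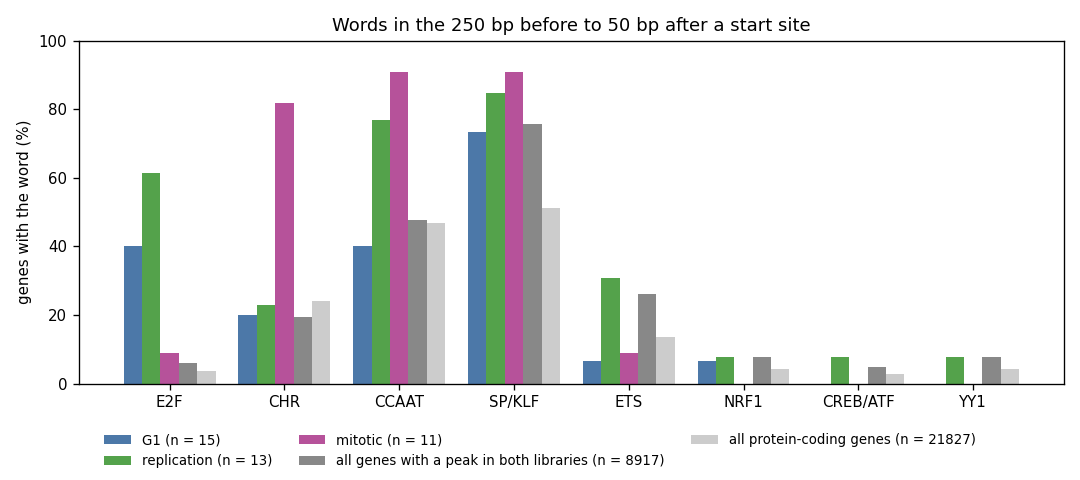
Share of genes with each word within 250 bp before to 50 bp after a start site, for G1, replication and mitotic genes, all genes open in both libraries and all protein-coding genes. E2F words are most frequent in replication genes (61.5%), and CHR words in mitotic genes (81.8%).

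The promoters in which these words meet the open chromatin are printed here as the gene reads, in the RefSeq GRCm38.p6 reference (the mm10 build). They were chosen with their values seen. Each runs from 250 bases before the start site through the first 30 bases of the transcript. The mice carry a second parental genome whose letters may differ. Capitals mark E2F words in the first 5, with overlapping words running together, and in Mcm5 also the CREB/ATF word TGACGTCA. The regions are chr2:154569863-154570142 (E2f1, minus strand), chr2:157204483-157204762 (Rbl1, minus), chr8:75109319-75109598 (Mcm5, plus), chr1:128359635-128359914 (Mcm6, minus) and chr4:108579204-108579483 (Orc1, plus).
E2f1: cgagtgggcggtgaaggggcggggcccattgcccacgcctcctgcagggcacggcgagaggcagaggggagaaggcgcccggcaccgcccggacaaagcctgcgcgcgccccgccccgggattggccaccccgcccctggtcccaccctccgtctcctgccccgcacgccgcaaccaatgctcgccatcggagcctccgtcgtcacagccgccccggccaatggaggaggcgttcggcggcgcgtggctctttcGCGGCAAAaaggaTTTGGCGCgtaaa
Rbl1: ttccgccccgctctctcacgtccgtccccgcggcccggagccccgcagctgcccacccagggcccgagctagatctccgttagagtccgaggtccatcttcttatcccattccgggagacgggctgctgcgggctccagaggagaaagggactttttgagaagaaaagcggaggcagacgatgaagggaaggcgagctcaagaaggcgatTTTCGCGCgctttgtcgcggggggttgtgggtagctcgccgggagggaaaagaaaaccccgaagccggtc
Mcm5: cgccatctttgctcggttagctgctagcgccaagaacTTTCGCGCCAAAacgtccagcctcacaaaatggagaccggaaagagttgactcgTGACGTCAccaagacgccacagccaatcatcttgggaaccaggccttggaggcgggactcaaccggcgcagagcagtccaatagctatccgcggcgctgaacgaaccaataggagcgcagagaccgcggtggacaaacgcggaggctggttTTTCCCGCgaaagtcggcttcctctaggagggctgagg
Mcm6: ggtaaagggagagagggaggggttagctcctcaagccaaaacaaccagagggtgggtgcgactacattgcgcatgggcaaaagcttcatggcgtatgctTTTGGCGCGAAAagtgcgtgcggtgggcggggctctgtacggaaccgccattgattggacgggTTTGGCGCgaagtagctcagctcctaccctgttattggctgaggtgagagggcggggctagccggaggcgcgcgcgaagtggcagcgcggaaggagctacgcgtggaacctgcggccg
Orc1: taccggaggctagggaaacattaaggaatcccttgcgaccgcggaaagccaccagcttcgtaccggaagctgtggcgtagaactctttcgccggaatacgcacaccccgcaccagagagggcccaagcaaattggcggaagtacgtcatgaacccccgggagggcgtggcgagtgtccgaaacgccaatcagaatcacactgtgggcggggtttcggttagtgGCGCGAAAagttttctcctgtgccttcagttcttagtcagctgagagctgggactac

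For the mitotic genes capitals mark CHR words, and in Cdk1 the first capitals, TTTCGCGC, mark the 1 E2F word of the class. The regions are chr9:70421518-70421797 (Ccnb2), chr10:69352909-69353188 (Cdk1), chr7:135716332-135716611 (Mki67) and chr11:99024160-99024439 (Top2a), all on the minus strand.
Ccnb2: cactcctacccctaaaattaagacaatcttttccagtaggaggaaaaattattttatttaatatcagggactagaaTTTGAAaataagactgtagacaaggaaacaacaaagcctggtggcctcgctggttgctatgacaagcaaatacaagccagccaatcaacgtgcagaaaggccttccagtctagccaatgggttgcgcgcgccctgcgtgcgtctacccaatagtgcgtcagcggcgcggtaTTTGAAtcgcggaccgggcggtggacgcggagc
Cdk1: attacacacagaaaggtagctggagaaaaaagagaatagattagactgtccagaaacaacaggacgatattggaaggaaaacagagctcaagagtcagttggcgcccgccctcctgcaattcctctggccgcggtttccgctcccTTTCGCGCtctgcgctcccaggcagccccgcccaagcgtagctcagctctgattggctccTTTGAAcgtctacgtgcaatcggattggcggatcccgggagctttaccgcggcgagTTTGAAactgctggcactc
Mki67: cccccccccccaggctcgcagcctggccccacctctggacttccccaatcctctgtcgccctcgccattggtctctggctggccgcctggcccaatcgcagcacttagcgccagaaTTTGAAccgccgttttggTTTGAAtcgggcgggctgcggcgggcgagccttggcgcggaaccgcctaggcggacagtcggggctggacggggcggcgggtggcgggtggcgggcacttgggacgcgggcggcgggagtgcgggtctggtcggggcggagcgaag
Top2a: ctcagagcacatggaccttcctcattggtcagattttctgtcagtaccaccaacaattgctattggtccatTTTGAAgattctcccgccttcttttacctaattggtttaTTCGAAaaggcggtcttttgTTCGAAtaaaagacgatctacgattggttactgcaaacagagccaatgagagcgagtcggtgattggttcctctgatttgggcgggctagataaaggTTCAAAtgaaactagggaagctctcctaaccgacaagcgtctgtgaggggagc

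Footprints, short stretches cut less than the DNA around them, overlapped many of these words in the deeper library. An overlap is 1 base or more of the word. The window of each gene around its reference start site held 23 E2F words over the 39 genes, of which 12 overlapped a footprint in replicate 2, 2 in replicate 3 and 1 in both. Of these, 5 words lay whole inside footprints in replicate 2 and 2 in replicate 3. At genes open in both libraries, footprints of replicate 2 overlapped 12 of 22 E2F words (54.5%) in cell cycle genes, against 37.6% of 473 in all such genes. For replicate 3 the shares were 9.09% and 9.51%. The difference seen in replicate 2 was therefore not seen in replicate 3, which has fewer footprints. More of the E2F words in cell cycle genes also lay inside a stricter peak of replicate 2, 19 of 22 against 333 of 473. The part of this in the difference was not tested.

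The E2F word with a footprint in both libraries was that of Rbl1, TTTCGCGC, whose first base lies 40 bp before the start site, with all 8 bases in a footprint of each library. At E2f1 the word 4 bp after the start site had 7 of its 8 bases in footprints of replicate 2, and the word 17 bp after it had 2 of 8. At Orc1 the word 27 bp upstream had all 8 bases in a footprint of replicate 2. At Mcm6 the overlapping words 151 and 147 bp upstream had 5 and 7 of 8 bases in one. At Mcm5 the overlapping words 213 and 209 bp upstream lay whole in a footprint of replicate 2, while the word 8 bp before the start site lay outside the peaks. The CREB/ATF word of Mcm5, 159 bp upstream, had all 8 bases in a footprint of replicate 2 and 3 of them in one of replicate 3. Footprints of replicate 2 overlapped 85.7% of all 428 CREB/ATF words at genes open in both libraries, and those of replicate 3 overlapped 44.4%.

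CHR words of the cell cycle genes were overlapped by footprints more often than CHR words elsewhere. At genes open in both libraries it was 8 of 17 (47.1%) in replicate 2, against 17.2% of 1235 words in all such genes, and 3 of 17 (17.6%) in replicate 3, against 5.10%. More of these words also lay inside a stricter peak of replicate 2, 14 of 17 against 611 of 1235. The part of this in the difference was not tested. Of the overlapped words of the cell cycle genes, 4 of 8 in replicate 2 and 0 of 3 in replicate 3 lay whole inside footprints. Mki67 carried the CHR word with a footprint in both libraries, 134 bp before the start site, with all 6 bases covered in replicate 2 and 5 in replicate 3. Its other word, 116 bp before the start site, had 4 of 6 bases in a footprint of replicate 3. In Ccnb2 the word 3 bp before the start site shared 2 of its 6 bases with a footprint of replicate 2, and the word 174 bp upstream lay outside the peaks. Cdk1 had 5 of the 8 bases of its E2F word, 105 bp upstream, in a footprint of replicate 2. Its CHR word 11 bp downstream had 4 of 6 bases in one of replicate 3. In Top2a footprints of replicate 2 covered all 6 bases of the word 179 bp upstream and 4 of those of the word 120 bp upstream. CCAAT words showed no such excess, with 15 of 54 (27.8%) in footprints of replicate 2 against 24.8% in all genes open in both libraries.

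**Figure D5:**
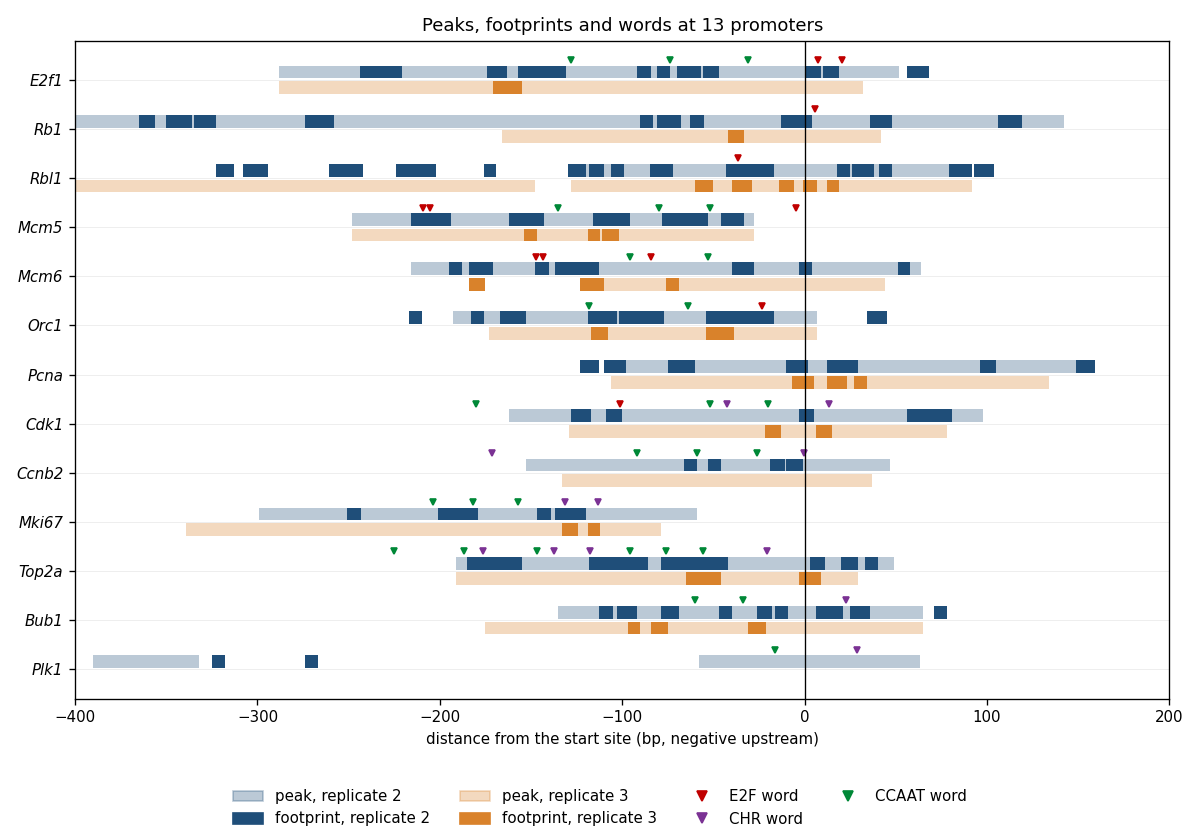
Stricter peaks (pale) and footprints (dark) of replicate 2 (blue) and replicate 3 (orange) by distance from the start site at 13 promoters, with triangles for E2F, CHR and CCAAT words. Peaks of both libraries cover nearly the same stretch at most genes, replicate 2 has more footprints, and Plk1 has no peak in replicate 3.

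Footprints were counted in the promoter windows of all 39 genes. These windows held 279 footprints in replicate 2 and 74 in replicate 3. Of these, 231 in replicate 2 and 66 in replicate 3 overlapped a stricter peak, and densities count only such footprints. Per kb of stricter promoter peak the density was 13.3 in replicate 2, against 13.4 over all protein-coding genes, and 7.45 in replicate 3, against 8.52. By class, replicate 2 had 17.2 per kb in mitotic genes, 14.5 in replication genes and 11.4 in G1 genes, and replicate 3 had 8.33, 6.87 and 7.61 in that order. The classes thus stood in different orders in the libraries. Of the 74 footprints of replicate 3, 50 (67.6%) overlapped one of replicate 2, against 66.2% over all promoters. In replicate 2 Rbl1 had the most, with 16 against 5 in replicate 3, followed by Rbl2 with 14 and 3. In replicate 3 Ccne1 had the most, with 6, and it had 11 in replicate 2. E2f3 had 13 in replicate 2 and none in replicate 3, and Mcm7 had 13 and 4.

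Away from promoters, open sites found in both libraries lay mostly at G1 loci. Loci were taken as gene bodies plus 10 kb on each side, and a distal peak overlapped no promoter window of any protein-coding gene. The 39 loci held 10 distal peaks present in both libraries, 9 at 6 of the 15 G1 loci, 1 at a mitotic locus and 0 at the 13 replication loci. Counted by gene, 7 of 39 loci (17.9%) had one, against 21.3% of all genes. G1 genes alone stood at 40.0%. Counted in replicate 2 whatever replicate 3 held, the loci had 60 distal peaks, 41 at G1 loci, 9 at 6 of the 13 replication loci and 10 at 3 of the 11 mitotic loci. Per locus that was 2.73 at G1, 0.692 at replication and 0.909 at mitotic loci, against 0.936 for all genes. The 9 peaks at replication loci had signals of 0.649 to 2.57. G1 genes are also the longest class, with a median gene length of 23.7 kb, against 15.4 kb for replication genes, 13.9 kb for mitotic genes and 17.4 kb for all genes. The part of gene length in this difference was not tested.

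All 3 D-type cyclin loci had such a site inside the gene. Ccnd1, whose promoter had no peak, had a peak of 2.69 in replicate 2 and 3.57 in replicate 3 in an intron at chr7:144937541-144937760, centred 2218 bp downstream of the start site. It lay within 1000 bp of the start of a Ccnd1 transcript annotated as a retained intron. It is printed because it is the open site of a gene with a closed promoter. Its 220 bases on the minus strand, with the 3 footprints of replicate 2 in capitals, are as follows.
Ccnd1: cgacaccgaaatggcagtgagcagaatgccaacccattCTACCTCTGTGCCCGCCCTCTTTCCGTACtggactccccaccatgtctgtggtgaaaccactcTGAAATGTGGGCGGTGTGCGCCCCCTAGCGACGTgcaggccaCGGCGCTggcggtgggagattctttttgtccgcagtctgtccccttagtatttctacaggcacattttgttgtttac

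At Ccnd2 the site lay in an exon outside coding sequence, chr6:127147781-127147980, at 3.92 in replicate 2 and 5.33 in replicate 3. At Ccnd3 2 intronic sites lay 2940 and 6080 bp from the nearest Ccnd3 start site, at chr17:47508061-47508300 and chr17:47511221-47511420. Their signals were 5.42 and 10.6 in replicate 2, and 4.65 and 9.31 in replicate 3. The second of these was stronger than any of the 39 promoters except Ccne1 in both libraries. E2f2 had 1 site 8704 bp upstream, with 5.02 in replicate 2 and 5.19 in replicate 3, and 1 intronic site 7756 bp downstream of its start site, with 5.60 and 7.09.

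Distal sites were compared with the promoter of the same locus. At 6 of the 7 loci the strongest distal site had more signal in both libraries, against 56.2% of the 4656 loci with such a site in all. At 4 of these 6, Ccnd1, Ccnd2, E2f2 and Aurkb, a promoter without a peak in 1 or both libraries was taken as lower. Where the promoter was open in both libraries it was 2 of 3 loci, against 18.3% of 2440. The exception was Cdk4, whose sites of 2.86 and 3.02 in replicate 2 lay in the neighbouring genes March9 and Agap2. At E2f4 the site of 3.87 in replicate 2 and 4.65 in replicate 3 lay in coding sequence of Exoc3l, 6542 bp upstream. Which gene these sites serve cannot be read from the files.

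The flank of Aurkb held 8 distal peaks in replicate 2, and 7 of them overlapped a tRNA gene of the RefSeq annotation of GRCm38.p6. The 1 found in both libraries, chr11:69037341-69037600, had 3.42 in replicate 2 and 3.03 in replicate 3, lay 8182 bp upstream of the Aurkb start site and overlapped the serine tRNA gene n-TSaga4. The other 6 over tRNA genes had no peak in replicate 3, although 5 of them were strong in replicate 2, at 5.34, 6.13, 6.89, 5.10 and 7.88. These peaks lay over tRNA genes for isoleucine (n-TIaat5), proline (n-TPcgg3), aspartic acid (n-TDgtc9), glycine (n-TGtcc6) and tryptophan (n-TWcca7). Over the genome 92.9% of the 948 distal peaks with a signal of 4 or more in replicate 2 were found in replicate 3, and 67 were not. Of the 9 such peaks at the loci of the cell cycle genes 4 were found, and the 5 that were not all stood beside Aurkb. Low signal in replicate 2 therefore does not mark every site missing from replicate 3.

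Most promoters of the wider pathway were open as well. Of 71 related genes 64 (90.1%) had a promoter peak in both libraries, against 32 of the 39 genes above (82.1%) and 40.9% of all genes. Among other replication factors it was 28 of 29, led by Pold1, the catalytic subunit of DNA polymerase delta, with 13.0 in replicate 2 and 12.6 in replicate 3. Orc4 followed with 10.5 and 8.67. Tk1, thymidine kinase, had no peak in either library. Among other mitotic genes it was 22 of 23, all but Cdc25b, led by the kinesins Kif23, with 8.49 in replicate 2 and 9.53 in replicate 3, and Kif11, with 6.47 and 9.49. The 22 open genes had a median mean percentile of 59.7, and the 9 mitotic genes above one of 28.1. The 28 open replication factors of this wider list stood at 60.0, so replication and mitotic genes did not differ here as they did among the 39 genes.

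Regulators of E2F factors and of the kinases were open to different extents. Of 12 E2F partners and DREAM/MuvB subunits 10 (83.3%) were open in both libraries, against 40.9% of all genes. Lin52, a MuvB subunit, led with 6.23 in replicate 2 and 5.65 in replicate 3, and Rbbp4 followed with 6.09 and 5.74. Tfdp2 and Lin37 were open in replicate 2 alone. Of 7 inhibitors of cyclin-dependent kinases 4 (57.1%) were open in both. With the permissive lists 12 of the 12 and 6 of the 7 were open in both, against 45.5% of all genes. Cdkn2d had the highest signal, 11.8 in replicate 2 and 8.99 in replicate 3, and Cdkn1b, an inhibitor known from resting T cells, had 4.06 and 3.75. Cdkn1a and Cdkn2c were open in replicate 2 alone, and Cdkn2a in neither library.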

How the data were processed

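DNase-seq lists of 2 libraries were used, 1 group with no comparison between groups. Per the labels the build is mm10. Per the deposited notes each list was made from the alignments of its own library. No source used here gives the aligner or the callers of peaks and footprints. The authors deposited a signal value per peak with no stated scaling. Signals below 2 fell on whole multiples of 1 step per library, within 0.05 of that step. The authors' deposited q-values are false discovery rates up to 0.05, and footprint lists carry a constant, so their intervals alone were used. Of the peak lists, the shorter one is called stricter and the longer one permissive.

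Genes were the protein-coding genes of GENCODE M21. The strongest peak overlapping a promoter window by 1 bp gave the gene's signal. Its reference start site was the one nearest that peak. CpG-rich promoters had an observed over expected CpG ratio of at least 0.6 and a GC content of at least 55%. The words, classes and lists, like the 39 genes, were chosen with earlier results of these data known. All 39 genes are named. Related genes named are, per list, the 2 of highest mean percentile and up to 3 open in neither library. Those open in replicate 2 alone were named after their values were seen. Alternatives changed peak lists, windows, start sites, flanks and libraries. The overlap code was tested on simulated data against bedtools 2.31.1. The scripts ran under Python 3.11.15 with pandas 2.3.3, numpy 2.4.6, pysam 0.24.0 and scipy 1.17.1, and matplotlib 3.10.9 drew the figures.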

Additional observations from a re-analysis of the deposited data

How the results depend on the processing

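Of 88 alternative values 80 stayed within the limits set for their kind. The number of cell cycle genes open in both libraries was 32 in the main count and 31 to 34 under 7 other settings, with 38.6% to 45.5% of all genes. Permissive lists added Cdk6. The most 5′ start site alone removed Ccnd3, and start sites of every transcript type added Ccnd1 and E2f2, through the sites inside these genes. Counting 1 library alone gave 32 without replicate 2 and 38 without replicate 3. The summed footprints were 150 in G1, 126 in replication and 77 in mitotic genes. They were 28 to 122 in G1 genes, 30 to 96 in replication genes and 16 to 61 in mitotic genes with 1 library left out, the lower value without replicate 2. The 10 distal peaks became 5 in gene bodies alone, 36 with 50 kb either side and 21 with the permissive lists, since these settings change the area or the list searched. They were 10 to 60 with 1 library left out, 60 of them without replicate 3, an alternative added after the data were seen. Mitotic genes with an E2F word numbered 1, and 2 within 150 bp either side. Within the cell cycle gene list the median percentile kept the order of the classes under every setting tried, mitotic genes lowest at 21.7 to 37.2. That order was not seen in the related lists, where other mitotic genes stood at 59.7 and other replication factors at 60.0. No paired analysis was possible because the 2 libraries form 1 group. Depth limits the lower signals: a promoter without a peak in replicate 3 may lie below its detection.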
